A study of Mus musculus with 6 samples.

Results

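The macrophage identity genes described here are 10 genes that mark macrophages in the mouse heart, matched by symbol to 10 of the 36558 gene IDs in the authors' deposited table. Adgre1, Csf1r, Lyz2 and Cd68 mark macrophages in general. Mrc1, Cd163 and the 3 C1q genes (C1qa, C1qb and C1qc) stand for resident macrophages, and Ccr2 for recruited ones. Heart libraries of 3 control samples (Srsf3Fl/Fl, without Cre) were set against 3 with βMHC-Cre (Srsf3Fl/Fl-βMHC-Cre, here cKO). They are called hearts here, but the labels do not say that each came from a separate animal, so p-values measure the spread between these samples, which may be technical. The floxed Srsf3 alleles are shared by both groups, and the transgene drives Cre from the Myh7 promoter in cardiomyocytes from the time before birth. The mice were untreated, the labels used here state neither age nor sex, and no Cre is named for the controls. Polyadenylated RNA of whole hearts was sequenced, so RNA of macrophages is a small part of each library, and more cells and more RNA per cell cannot be told apart.

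The heart holds macrophages that settle before birth and renew in place, and others that derive from blood monocytes. Monocytes leave the bone marrow and enter tissue through the chemokine receptor CCR2, and lose it in part as they mature. Resident cardiac macrophages are known for the scavenger receptors CD206 (Mrc1) and CD163 and for the clearance of debris, while C1q, the first component of the classical complement pathway, is made by tissue macrophages of either origin. Tissue macrophages depend on signals through CSF1R.

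The values are the authors' own comparison, with 1 mean normalized count over all 6 hearts, 1 fold change and 1 standard error (SE) for each gene. Values per heart were not used here, so the spread between hearts enters only through the SE, and depth per library is unknown. The fold change does not name its reference group. Its direction was read from splicing events near full inclusion, which lie closer to 100% where more reads cover a gene. Among 669 genes called different, members left out, this relative depth and the fold change shared their sign in 633 (94.6%), and positive values are therefore taken as higher in cKO. Srsf3 itself stood at a log2 fold change of 0.02 with an SE of 0.07 (adjusted p = 0.935, DESeq2) in the authors' deposited table. A sum over all transcripts of a whole heart, whose other cells keep the gene, does not check a deletion in cardiomyocytes.

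All 4 general macrophage markers and 2 of the 3 C1q genes were higher in cKO hearts, while the resident scavenger receptors Mrc1 and Cd163 and the recruited marker Ccr2 did not pass the test. At an adjusted p under 0.05 in the authors' Wald test (DESeq2), 6 of the 10 members rose and 0 fell. Over all 15929 tested genes, 3.78% rose and 3.31% fell. The 10 fold changes were all positive, with a median log2 value of 0.55, where 49.2% of tested genes were positive and their median was -0.0038. At an unadjusted p under 0.05 the count was 8 of 10 members, against 19.2% of tested genes. The gene list of the authors' sleuth pipeline held 2 members, Lyz2 and Adgre1, and that of their featureCounts pipeline held 1, Lyz2. Of all tested genes, 1.76% and 0.609% were in these lists with a positive fold change. An adjusted p under 0.01 kept 4 members, against 1.92% of tested genes that rose. Under other ways of adjusting, filtering or centring the same 6 members were called. The share of all genes that rose was then 1.99% with p adjusted over every gene with one, 3.56% and 4.49% with mean normalized counts of at least 10 and 100, and 3.95% and 4.22% with values centred on the median of all tested and of abundant genes.

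**Figure D1:**
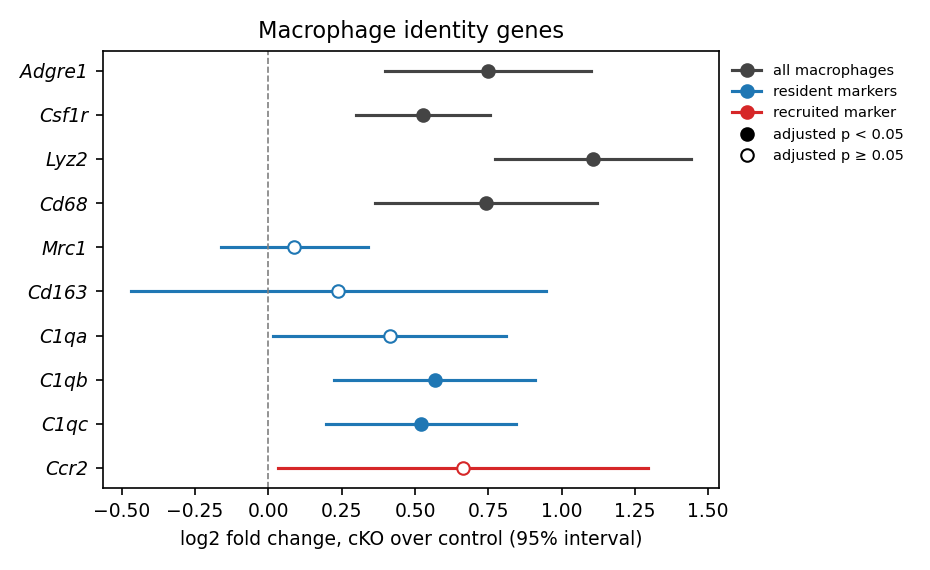
Log2 fold change of the 10 members in cKO over control hearts (3 hearts each) from the authors' deposited table, with 95% intervals from its standard errors. Filled points passed at an adjusted p under 0.05: Lyz2 lies farthest to the right at 1.11, and Mrc1 lies nearest to 0 at 0.09.

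Lysozyme M, Lyz2, which cleaves bacterial cell walls and is made by cells of the myeloid line, showed the largest rise of the members. Its fitted level was 573 normalized counts in control and 1234 in cKO hearts. In the authors' deposited table its log2 fold change was 1.11 (SE 0.17, adjusted p = 2.65e-08, DESeq2), a fold of 2.15 with a 95% interval of 1.71 to 2.72. It ranked at position 43 of 15929 genes by the Wald statistic, and it is the member found by all 3 of the authors' pipelines. The SE was 1.46 times the median of genes of similar abundance and higher than 95.3% of them. The gene lies on chromosome 10 at 117277331 to 117282321 (GRCm38, minus strand), beside its paralog Lyz1. Of the 31-base words in its transcripts, 32.8% also occur in Lyz1, so reads may have been split between them. Lyz1 had a mean of 3.60 normalized counts in the authors' deposited table against 903 for Lyz2, and no adjusted p.

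Adgre1 encodes the adhesion receptor by which mouse macrophages are usually recognised. Its fitted level went from 151 to 253 normalized counts, and the log2 fold change was 0.75 (SE 0.18, adjusted p = 0.00156, DESeq2) in the authors' deposited table. Cd68, a glycoprotein of late endosomes and lysosomes in phagocytes, was close to it in size. Its fitted level went from 177 to 296 normalized counts, with a log2 fold change of 0.74 (SE 0.19, adjusted p = 0.00485, DESeq2) in the authors' deposited table. These 2 genes rose by a like factor, 1.68 and 1.67. Csf1r, the receptor for CSF1 and IL-34, was the most abundant member by count. It had a fitted 866 normalized counts in control and 1248 in cKO, with a log2 fold change of 0.53 (SE 0.12, adjusted p = 0.000429, DESeq2) in the authors' deposited table. Csf1r, on chromosome 18, overlaps the gene Hmgxb3 on the other strand by 873 bases, and 14.6% of its 31-base words occur in that gene. Hmgxb3 had a log2 fold change of 0.06 in the authors' deposited table, and the library kit was stranded, while no source used here says whether strand was used in counting.

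The C1q genes lie side by side on chromosome 4 and encode the 3 chains that assemble into the C1q molecule. C1qb went from a fitted 393 to 583 normalized counts, a log2 fold change of 0.57 (SE 0.17, adjusted p = 0.0241, DESeq2) in the authors' deposited table. C1qc went from 433 to 621, a log2 fold change of 0.52 (SE 0.17, adjusted p = 0.0301, DESeq2) in the authors' deposited table. C1qa, the chain with the highest count, had 509 in control and 678 in cKO and did not pass. Its log2 fold change was 0.41 (SE 0.20, adjusted p = 0.234, DESeq2) in the authors' deposited table, and its 95% interval ran from 0.02 to 0.81. That interval holds the values of both other chains. The SE of C1qa was 1.54 times the median of genes of similar abundance, where that of C1qc was 1.21 times it. With that SE, a log2 change below 0.59 could not have passed.

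Mrc1, the mannose receptor CD206, was nearly level between the groups. It had a fitted 687 normalized counts in control and 730 in cKO, and its log2 fold change was 0.09 (SE 0.13, adjusted p = 0.788, DESeq2) in the authors' deposited table. The 95% interval of the fold ran from 0.895 to 1.26, and a log2 change of 0.37 or more would have passed at this SE. Cd163, the scavenger receptor for haptoglobin-haemoglobin complexes, was scarcer, at 85.6 and 101 normalized counts. Its log2 fold change of 0.24 (SE 0.36, adjusted p = 0.804, DESeq2) in the authors' deposited table had a 95% interval from -0.47 to 0.95. A change as large as that of Lyz2 lies outside this interval, while one as large as that of Cd68 lies inside it.

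Ccr2, the receptor that brings monocytes into tissue, was the scarcest member, with a fitted 46.6 normalized counts in control and 73.9 in cKO. In the authors' deposited table its log2 fold change was 0.66 (SE 0.32, adjusted p = 0.226, DESeq2), with a 95% interval from 0.03 to 1.29. Only a log2 change of 0.94 or more could have passed at this SE, so a rise of the size seen in Adgre1 or Cd68 could not have been called for Ccr2.

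Between resident and recruited markers no difference in response exceeded the error of these data. Every one of the 5 resident members had a smaller log2 fold change than Ccr2. All 5 differences share the same Ccr2 estimate, so they are not 5 separate observations. The difference from Ccr2 was -0.58 for Mrc1, with a 95% interval of -1.25 to 0.10 when the 2 estimates are treated as independent, and -1.46 to 0.30 at the widest that any covariance between them allows. For Cd163 it was -0.43 (widest interval -1.76 to 0.91), for C1qa -0.25 (widest interval -1.28 to 0.78), for C1qc -0.14 (widest interval -1.10 to 0.81) and for C1qb -0.10 (widest interval -1.07 to 0.88). All 5 intervals hold 0 under either error, and they reach far below it, so neither a like response nor a larger response of Ccr2 is shown.

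At the widest covariance, most pairs that stood apart were general markers above Mrc1, and under independence Lyz2 also stood above several members. Of all 45 pairs of members, which were compared after the values were seen and without adjustment for their number, 11 had an interval without 0 under independence and 4 at the widest covariance. Of these 4 pairs, 3 were general markers above Mrc1. Lyz2 exceeded Mrc1 by 1.02 log2 units (widest interval 0.43 to 1.60), Adgre1 by 0.66 (widest interval 0.06 to 1.26) and Cd68 by 0.65 (widest interval 0.02 to 1.28). The fourth pair was Lyz2 above Csf1r, by 0.58 (widest interval 0.02 to 1.14). The remaining general marker, Csf1r, exceeded Mrc1 by 0.44, with an interval of 0.10 to 0.78 under independence and -0.04 to 0.92 at the widest. Under independence C1qb and C1qc also exceeded Mrc1, by 0.48 (interval 0.06 to 0.90) and 0.43 (interval 0.02 to 0.84), while their widest intervals hold 0. Likewise under independence, Lyz2 exceeded Cd163 by 0.87 (interval 0.09 to 1.65) and C1qa by 0.69 (interval 0.17 to 1.21). It exceeded C1qc by 0.59 (interval 0.12 to 1.05) and C1qb by 0.54 (interval 0.06 to 1.02). The widest intervals of these Lyz2 pairs hold 0 too. The intervals of Adgre1 and Cd68 against Csf1r hold 0 under either error.

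**Figure D2:**
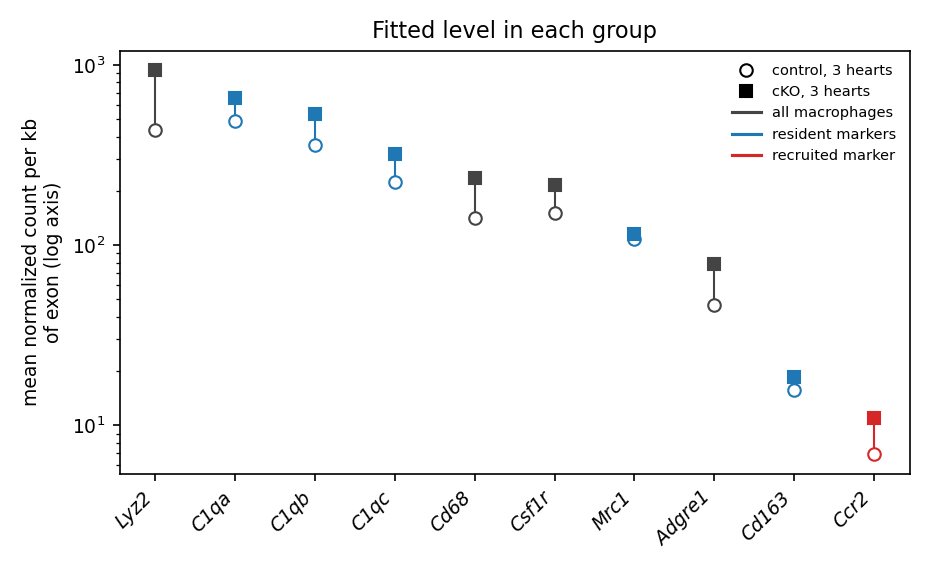
Fitted mean normalized count per kb of exon for each member in control (open circles) and cKO hearts (filled squares), on a log axis, ordered by the mean over both groups. Lyz2 leads at 435 and 937 per kb, Mrc1 hardly moves at 108 and 115, and Ccr2 is lowest at 6.90 and 10.9.

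Per kb of exon, the order of the mean level was Lyz2, C1qa, C1qb, C1qc, Cd68, Csf1r, Mrc1, Adgre1, Cd163 and Ccr2. Lyz2 stood at 686 normalized counts per kb over all hearts and C1qa at 571. Cd68 and Csf1r, at 188 and 183, were neighbours too close to rank, and with 1 value per group no neighbours in this order could be tested for a difference in level. Resident markers spanned 17.1 per kb for Cd163 to 571 per kb for C1qa, and Ccr2 had 8.92. The summed fitted count of the 4 general markers was 1767 in control and 3032 in cKO, and that of the 5 resident members was 2107 and 2713.

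Promoters are shown for the 4 members whose window held the core described next: C1qb, C1qc and Cd68, which rose, and Mrc1, which did not pass. PU.1, encoded by Spi1, is the transcription factor that macrophages and other myeloid cells need, and binds a purine-rich core. Sequences are from RefSeq (GRCm38.p6), each 250 bases before to 50 after the start of the gene, read 5′ to 3′ along the gene. Capitals mark the core GAGGAA or its reverse complement, and in Cd68 also 1 match to the C/EBP pattern TTGCNNAA.
C1qb, chr4:136886151-136886450, minus strand: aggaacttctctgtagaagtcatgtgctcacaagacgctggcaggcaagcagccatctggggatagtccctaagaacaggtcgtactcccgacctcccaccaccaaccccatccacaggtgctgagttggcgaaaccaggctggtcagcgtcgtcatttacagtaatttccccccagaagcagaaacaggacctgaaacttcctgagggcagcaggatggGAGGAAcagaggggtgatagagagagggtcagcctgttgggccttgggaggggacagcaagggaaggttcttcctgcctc
C1qc, chr4:136892865-136893164, minus strand: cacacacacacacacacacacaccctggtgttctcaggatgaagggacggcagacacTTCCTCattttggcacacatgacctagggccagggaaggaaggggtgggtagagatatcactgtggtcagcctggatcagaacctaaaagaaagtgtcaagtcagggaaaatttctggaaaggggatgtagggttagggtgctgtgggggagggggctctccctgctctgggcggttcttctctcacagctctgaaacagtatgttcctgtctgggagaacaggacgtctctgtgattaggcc
Cd68, chr11:69666121-69666420, minus strand: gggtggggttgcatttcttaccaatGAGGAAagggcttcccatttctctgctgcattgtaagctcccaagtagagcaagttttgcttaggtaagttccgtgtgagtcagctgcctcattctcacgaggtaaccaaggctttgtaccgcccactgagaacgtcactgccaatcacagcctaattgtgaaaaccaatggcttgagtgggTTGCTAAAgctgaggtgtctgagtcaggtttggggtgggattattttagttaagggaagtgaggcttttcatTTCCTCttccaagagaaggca
Mrc1, chr2:14229164-14229463, plus strand: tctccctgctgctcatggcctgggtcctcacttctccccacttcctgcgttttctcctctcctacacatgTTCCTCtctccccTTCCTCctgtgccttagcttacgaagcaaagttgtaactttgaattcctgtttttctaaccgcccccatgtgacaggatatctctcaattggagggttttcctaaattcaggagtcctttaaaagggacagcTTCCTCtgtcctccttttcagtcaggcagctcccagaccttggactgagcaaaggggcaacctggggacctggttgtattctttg
The core was found in 4 of the 7 member promoters in the table, those shown, and in 28.3% of all 32851 promoters of this length. Mrc1 held 3 matches, the nearest 35 bases before the start, Cd68 held 2, and C1qb (30 bases before the start) and C1qc 1 each. The promoters of Lyz2, Cd163 and Ccr2 held none of these letters in the window, and those of C1qa, Adgre1 and Csf1r were not searched. The 1 C/EBP match was that of Cd68 (10.8% of all promoters). On both strands 0 matches were found to the Maf pattern TGCTGAC (4.67% of all promoters), the E-box CACGTG (7.15%) and the TATA box TATAAA (13.6%). The promoters shown are those that hold the core, so its presence could not separate C1qb, C1qc and Cd68 from Mrc1. Of the searched members without it, Lyz2 rose, and Cd163 and Ccr2 did not pass. A relation of the core to the response was not tested.

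Beyond the 10 members, some genes shared by myeloid cells and some of antigen presentation passed the test, and most did not. Of 24 other myeloid genes, 5 rose and 0 fell, with a median log2 fold change of 0.61. Positive values were held by 22 of the 24, and 14 had an unadjusted p under 0.05. Over all tested genes, 3.78% rose, 49.2% were positive and 19.2% had an unadjusted p under 0.05. Mpeg1, the pore-forming protein perforin-2, rose by 1.22 (SE 0.18), and Gpnmb, a glycoprotein of lysosome-rich macrophages, by 1.74 (SE 0.32) in the authors' deposited table. Lgals3, galectin-3, rose by 1.74 (SE 0.35), and Clec7a, the receptor dectin-1 for fungal glucans, by 1.75 (SE 0.47) in the authors' deposited table. The fifth, the protease gene Ctss, rose by 0.68 (SE 0.19) in the authors' deposited table and was named after its value was seen. Spi1 itself, also chosen with its value known, stood at 0.52 (SE 0.30, adjusted p = 0.350, DESeq2) in the authors' deposited table.

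Of 15 tested markers from the list of other resident cardiac macrophage genes, 1 rose and 0 fell, 9 were positive, and the median was 0.03. Their means ran from 18.7 to 8222 normalized counts, and the part of other heart cells in the abundant ones was not tested. Igf1, a growth factor that fibroblasts also make, rose by 0.63 (SE 0.12, adjusted p = 4.35e-05, DESeq2) in the authors' deposited table. Lyve1, the hyaluronan receptor, stood at 0.16 (SE 0.17), and Folr2, a folate receptor, at -0.05 (SE 0.25) in the authors' deposited table. Pf4 stood at -0.08 (SE 0.21) and Cbr2 at -0.16 (SE 0.31) in the authors' deposited table. Timd4, a receptor for phosphatidylserine on embryo-derived macrophages, had a value of 1.31 with an SE of 0.85 at a mean of 18.7 normalized counts in the authors' deposited table. All 5 of these were picked with their values known, as were Cx3cr1 at 0.27 (SE 0.14) and Siglec1 at 0.47 (SE 0.34) in the authors' deposited table. Of 8 tested monocyte genes, 0 passed by the Wald test and 0 were in the sleuth list, 1 had an unadjusted p under 0.05, and the median was 0.13. That 1 was Hp, at 1.75 (SE 0.81) and a mean of 21.2 normalized counts, named after its value was seen. Of the 8, 4 were positive. The most abundant of the 8, Vcan and Nr4a1, stood at -0.07 (SE 0.10) and 0.93 (SE 0.62) in the authors' deposited table. Their means were 3545 and 1733 normalized counts, and the part of other heart cells in them was not tested. Ly6c2, the Ly6C antigen of classical monocytes, stood at 0.47 (SE 0.52) at a mean of 26.9 normalized counts in the authors' deposited table, and was named after its value was seen.

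**Figure D3:**
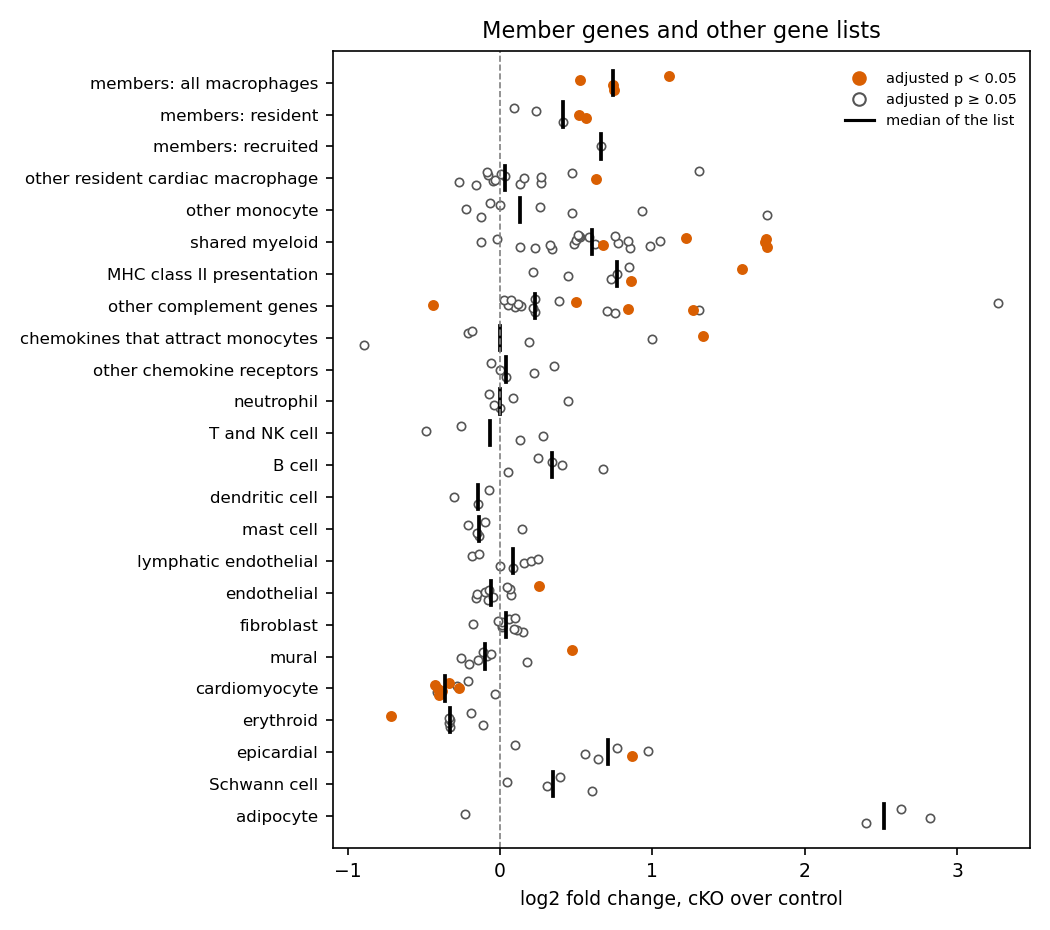
Log2 fold change of each tested gene, cKO over control, from the authors' deposited table, by gene list: the members in 3 classes, other macrophage and complement lists, and markers of other cell types. Black bars are medians: 0.74 for the general members and 0.61 for other myeloid genes, against 0.03 for other resident markers and -0.36 for cardiomyocyte markers. A list can hold genes that other heart cells also make, so its median need not follow 1 cell type.

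Genes for MHC class II presentation, which marks antigen-presenting macrophages and dendritic cells, had 7 tested members, of which 2 rose and 0 fell, with a median of 0.77. All 7 were positive, and 3 had an unadjusted p under 0.05. H2-DMa, which helps load peptides, rose by 1.59 (SE 0.23, adjusted p = 1.23e-09, DESeq2), and the invariant chain Cd74 by 0.86 (SE 0.23) in the authors' deposited table. Of 18 tested complement genes other than C1q, 3 rose and 1 fell, with a median of 0.23. Positive values were held by 17 of them, and 8 had an unadjusted p under 0.05. The anaphylatoxin receptor C3ar1 rose by 0.84 (SE 0.22) and C2, which acts just downstream of C1, by 1.27 (SE 0.33) in the authors' deposited table. Cd59a, which blocks the membrane attack complex, fell by 0.44 (SE 0.12) in the authors' deposited table.

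Ligands were read from the lists of growth factors and chemokines. Csf1, the growth factor for CSF1R, stood at 0.21 (SE 0.11, adjusted p = 0.281, DESeq2), and Il34, its other ligand, at 0.29 (SE 0.51) in the authors' deposited table. Neither passed, 0 of 2 tested growth factors had an unadjusted p under 0.05, and 0 were in the sleuth list. Of 6 tested chemokines that attract monocytes, 1 rose and 0 fell, and the median was 0.00. Ccl9 rose by 1.33 (SE 0.39, adjusted p = 0.0166, DESeq2) in the authors' deposited table. Ccl2, the main ligand of CCR2, stood at 0.19 (SE 0.33) at a mean of 48.8 normalized counts in the authors' deposited table and was named after its value was seen. Ccl6, also named with its value known, stood at 1.00 (SE 0.46, adjusted p = 0.203, DESeq2) in the authors' deposited table. The other tested chemokines were negative, so 3 of the 6 were positive. Ccl12 stood at -0.89 (SE 0.58), Cx3cl1 at -0.21 (SE 0.26) and Cxcl12 at -0.19 (SE 0.11) in the authors' deposited table. Of the 5 chemokines with no adjusted p, Ccl8 had a mean of 0, and the others had means of 12.8 normalized counts or less. Their values in the authors' deposited table were 0.15 (SE 0.69) for Ccl7, 2.08 (SE 0.86) for Ccl3, 1.3 (SE 1.2) for Ccl4 and 1.2 (SE 0.81) for Ccl5. Of 5 other chemokine receptors, 0 passed, 0 had an unadjusted p under 0.05 and 0 were in the sleuth list. The most abundant of these, Ackr3 and Cxcr4, stood at 0.04 (SE 0.12) and -0.06 (SE 0.16) in the authors' deposited table. Of 8 tested scavenger and apoptotic cell receptors, 0 passed, 0 had an unadjusted p under 0.05 and 0 were in the sleuth list. Cd36 and Axl, the most abundant, stood at -0.01 (SE 0.10) and 0.09 (SE 0.11) in the authors' deposited table, and the part of other heart cells in them was not tested.

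Tested markers of other leukocytes gave no calls beside the macrophage genes. Of the tested neutrophil (5), T and NK cell (4), B cell (5), dendritic cell (3) and mast cell (5) markers, 0 passed in the authors' Wald test, 0 had an unadjusted p under 0.05 and 0 were in the sleuth list. Their median log2 fold changes were 0.00, -0.06, 0.34, -0.15 and -0.14. In the authors' deposited table the neutrophil gene S100a9 stood at -0.07 (SE 0.30), Cd3d of T cells at 0.13 (SE 0.43) and Ighm of B cells at 0.34 (SE 0.30). Zbtb46 from the dendritic cell list stood at -0.08 (SE 0.12) and Kit from the mast cell list at 0.14 (SE 0.10). These 2 genes were the most abundant of their lists, with means of 631 and 962 normalized counts. Whether other heart cells also make them was not tested, and 4 dendritic cell genes had no adjusted p. The summed fitted count of the neutrophil markers was 245 in control and 249 in cKO, and that of the T and NK cell markers 223 and 226. For the lymphatic endothelium, which also expresses Mrc1 and Lyve1, 0 of 7 markers passed, 0 had an unadjusted p under 0.05 and 0 were in the sleuth list. Its median was 0.08, and Prox1 and Flt4 stood at -0.18 (SE 0.10) and 0.00 (SE 0.13) in the authors' deposited table.

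Some tissue markers moved in the same hearts as the macrophage genes. Of 10 cardiomyocyte markers, 6 fell and 0 rose, with a median of -0.36 and summed fitted counts of 2971620 in control and 2299750 in cKO. Myh6 weighed most in these sums, with a mean of 1223060 normalized counts, and did not pass. Its log2 fold change was -0.42 (SE 0.37, adjusted p = 0.614, DESeq2) in the authors' deposited table. Myl3 fell by 0.41 (SE 0.09) and Myl2 by 0.38 (SE 0.10) in the authors' deposited table. Actc1 fell by 0.40 (SE 0.11) and Tnni3 by 0.43 (SE 0.11) in the authors' deposited table. Of 6 epicardial markers, 1 rose and 0 fell (median 0.71), with sums of 3032 and 4604. All 6 were positive, and 5 had an unadjusted p under 0.05, against 19.2% of tested genes. The 1 that passed, Lrrn4, rose by 0.87 (SE 0.27) in the authors' deposited table. Of 7 erythroid markers, 1 fell (median -0.33), with sums of 129115 and 101436; Hbb-bt fell by 0.71 (SE 0.17) in the authors' deposited table. Fibroblast markers (0 of 10 passed, 1 at an unadjusted p under 0.05 and 0 in the sleuth list) had a median of 0.04 and sums of 388014 and 414779, with Col3a1 at 0.09 and Col1a1 at 0.15 in the authors' deposited table. Endothelial markers (1 of 10 rose, Vwf at 0.25 in the authors' deposited table) had a median of -0.06, and mural markers (1 of 8 rose, Tagln at 0.47 in the authors' deposited table) one of -0.10. Of 4 adipocyte and 4 Schwann cell markers, 0 passed and 0 were in the sleuth list, and 0 and 1 had an unadjusted p under 0.05. Their medians were 2.52 and 0.35, with Fabp4 at -0.23 (SE 0.12), Plin1 at 2.63 (SE 1.57) and Sox10 at 0.39 (SE 0.28) in the authors' deposited table. No marker of these lists had a mean of 0, and their part in the rise of the macrophage genes was not tested.

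Splicing of the members was read from the authors' deposited table of events, which gives 1 inclusion level per group, the percentage of a gene's transcripts in which the exon or intron is present. Of its 265079 events, 152 belonged to 9 members (Adgre1 under its older symbol Emr1), and Ccr2 was represented by none. By the authors' minimum change, the change exceeded with probability 0.95, 0 of the 152 events reached 10 points, where 0.23% of all events did. A minimum change above 0 was given for 4 of the 152 (2.63%), close to the 2.22% of all events. The events comprised 77 exons and 71 introns, and the rest were paired splice sites.

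The 4 events lay in Cd68, C1qb and Mrc1, and in all of them the exon was included more, or the intron retained less, in cKO. Cd68 held 2 of them. Its exon 2 (434 bases, chr11:69479005-69479438, mm9) was included at 84.6% in control and 97.2% in cKO, with a minimum change of 2 points. Its intron 5 (246 bases, chr11:69478007-69478252, mm9) was retained at 29.5% in control and 14.5% in cKO, with a minimum change of 3 points. All 4 Cd68 introns with an event were lower in cKO, as intron 1, from 25.7% to 15.8%, and intron 4, from 6.18% to 5.37%, where the minimum change was 0. Exon 2 of C1qb (202 bases, chr4:136438042-136438243, mm9) went from 94.6% to 99.7% with a minimum change of 2 points. Exon 24 of Mrc1 (233 bases, chr2:14240728-14240960, mm9) went from 94.5% to 99.4% with a minimum change of 1 point.

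**Figure D4:**
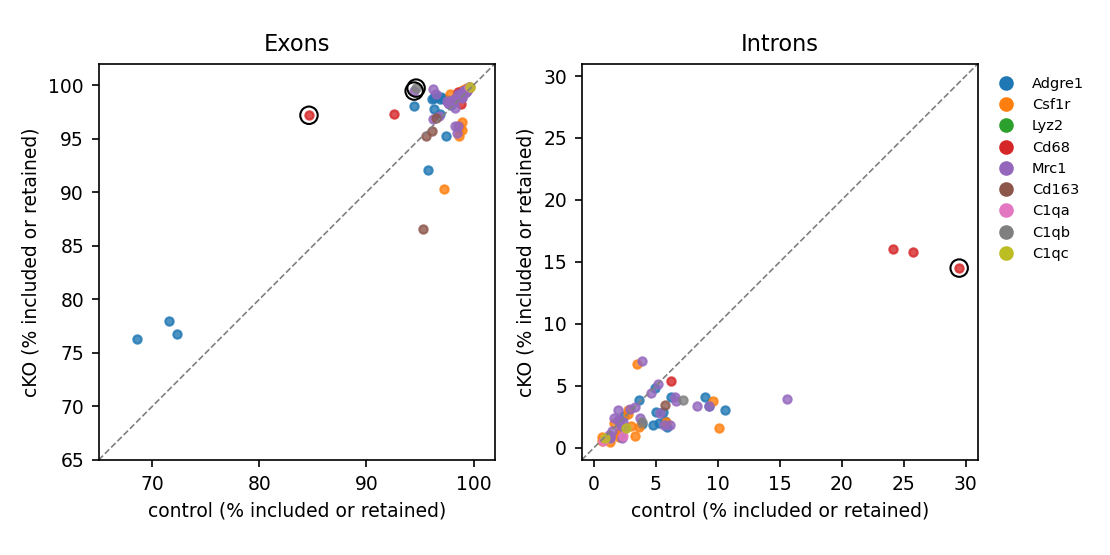
Inclusion of exons (left) and retention of introns (right) of the 9 members with events, control on the x axis and cKO on the y axis, in percent, 1 point per event, from the authors' deposited table. Circled points have a minimum change above 0. Intron 5 of Cd68 lies farthest below the diagonal, at 29.5% in control and 14.5% in cKO, and 3 exons of Adgre1 lie alone between 68.6% and 77.9%.

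Most other events lay near full inclusion or full removal in both groups. In Adgre1, 3 neighbouring exons near the 5′ end of the gene were alternative in both groups. Their lengths are 147, 108 and 120 bases, all multiples of 3, and the last is exon 5. They were included at 71.6%, 68.6% and 72.3% in control and at 77.9%, 76.3% and 76.8% in cKO, each with a minimum change of 0. Some exons of long members were lower in cKO, also with a minimum change of 0. In Csf1r, exons 5, 6 and 7 went from 98.9%, 98.6% and 98.6% to 96.5%, 95.9% and 96.1%, and exons 9 and 10 from 98.9% and 98.7% to 95.8% and 95.2%. The lowest Csf1r exon, of 116 bases, stood at 97.3% in control and 90.3% in cKO. In Mrc1, exons 13, 14 and 15 went from 98.3%, 98.4% and 98.6% to 96.2%, 95.5% and 96.2%. The lowest exon of Cd163 (324 bases) went from 95.3% to 86.6%. Beside the 2 Cd68 events above, 1 event moved by over 10 points, an Mrc1 intron at 15.6% in control and 3.95% in cKO, with a minimum change of 0.

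Of the 71 introns, 59 (83.1%) were lower in cKO, against 61.4% of all introns in the table. Mrc1, Csf1r and Adgre1 held 27, 19 and 14 of the 71, and introns of the same gene are not independent observations. Intron 5 of Cd68 was the only one with a minimum change above 0. Estimates near 0% or 100% also move toward the bound as reads increase. Over all genes, events within 3 points of a bound lay closer to it in cKO, by a median of 0.35 on the log2 scale. That median was 0.39 with exons alone and 0.23 with introns alone. Depth itself was not measured, and a change of splicing also moves this distance. Relative to the median of 0.35, depth as read from this distance was higher in cKO by 0.46 for Csf1r (24 events) and 0.65 for C1qa (3 events). It was higher by 0.35 for C1qc (3 events) and 0.28 for Adgre1 (7 events). For Mrc1 (32 events) it stood at -0.10. With events within 5 points of a bound, a window added after the values were seen, Mrc1 stood at -0.13 (44 events) and Cd163 at -0.43 (3 events). The 2 readouts come from the same libraries, and the part of depth in the lower intron values was not tested.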

How the data were processed

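RNA of 3 control and 3 cKO mouse hearts was compared, grouped by the sample descriptions. Among tools, the submitters' processing notes list DESeq2 1.24.0, kallisto 0.46.0, Trimmomatic 0.38 and FastQC 0.10.1. They list mm9, mm10 and GRCm38 as builds, and give no version of vast-tools, sleuth or featureCounts. The authors deposited, per the file headers, a mean normalized signal per gene over all libraries, a log2 fold change with its SE, a Wald score, and p-values. These were used as deposited, since no values per library were used. The authors' deposited event values are inclusion fractions per group, printed as percentages, and a score for their difference, on mm9.

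Fitted group levels were computed from the mean and the fold change, taking the mean as the average of both groups, and 95% intervals from the SE. The smallest change that could pass is the SE times the Wald value of the least significant called gene. Similar abundance means within 1.25-fold of the mean. Gene IDs were matched to GENCODE M21 (35856 matched, 702 did not), exon numbers by length, and exon length merges all transcripts. Python 3.11.15, pandas 2.3.3 and scipy 1.17.1 were used, and the adjustment was tested on simulated data.

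The members, gene lists and tests were chosen with earlier results of these data known. Named genes were the 10 members and, per list, up to 4 called genes by adjusted p, or the 2 most abundant where none was called. Values of a few genes that this rule or an overlap would name are not reported here. Alternatives were the genes adjusted over, count filters, centring, the threshold, the authors' other pipelines and the error of differences.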

Additional observations from a re-analysis of the deposited data

How the results depend on the processing

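The count of 6 members higher in cKO stayed at 6, the same genes, when p-values were adjusted over all 25665 genes with one, with a mean of at least 10, with a mean of at least 100 (which left out Cd163 and Ccr2) and with both centrings. It was 4 at an adjusted p under 0.01, where C1qb and C1qc no longer passed. By list membership in the authors' other pipelines it was 2 with sleuth and 1 with featureCounts; the cause was not tested. The count of member events was 4 for a minimum change above 0, against 0 at 10 points or more. The sign share was 75.0% with introns in place of exons. Of 48 single-gene values of the 6 called members under the alternatives, 37 kept their call and 11 lost it, and 30 values of the others stayed without one. List membership carries no fold change of its own, so direction was not checked there. No paired analysis was possible because the deposited values hold 1 comparison and no library values; for the same reason no library was left out, and events could not be limited to those deep enough to show 10 points. The SE limits Ccr2 and Cd163 most.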
